A study of Mus musculus with 24 samples.

Results

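The genes of prostaglandin synthesis described here are the cyclooxygenases Ptgs1 and Ptgs2, the prostaglandin E synthases Ptges, Ptges2 and Ptges3, and the prostacyclin synthase Ptgis. They were taken by name and are 6 of the 28328 genes to which transcripts could be assigned. Their mRNA was measured by stranded poly(A) RNA sequencing in LLC1, a cell line from the mouse Lewis lung carcinoma. Cells were grown with cisplatin at 2.5 µM, pemetrexed at 2.5 µM and trametinib at 10 nM together (combination), with trametinib at 10 nM alone, with cisplatin at 2.5 µM and pemetrexed at 2.5 µM (chemotherapy), or with 0.1% DMSO (untreated), for 6 h or 24 h. Cisplatin crosslinks DNA, pemetrexed is an antifolate that blocks nucleotide synthesis, and trametinib inhibits the ERK-activating kinase MEK. There were 3 libraries in each of the 8 groups, all of 1 cell line, and the labels do not say whether these came from separate cultures, so the p-values below measure only the spread between libraries.

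Prostaglandins are lipid signals made from arachidonic acid, which phospholipase A2 frees from membranes. The cyclooxygenases turn it into the unstable prostaglandin H2: Ptgs1 encodes the form that many tissues make at all times, and Ptgs2 the form that growth factors, stress and inflammatory signals induce. Terminal synthases then set the product, prostaglandin E2 by way of the Ptges genes or prostacyclin by way of Ptgis, and secreted prostaglandin E2 is known to dampen immune cells in tumours. Enzyme protein, enzyme activity and prostaglandins themselves were not measured.

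Levels are given in TPM, a share of all transcripts of a library that is scaled by transcript length, so that genes can be compared with each other. How many reads a value rests on is unknown. A difference is given as log2 of TPM + 1 with its standard error, and a gene is said to rise or fall where limma's adjusted p over 12581 tested genes was under 0.05. Libraries of 1 group correlated at 0.982 to 0.994. At 24 h, of 10 ERK output genes, 8 were lower and 1 (Phlda1) higher with the combination, and 9 lower and 1 (Spry2) higher with trametinib, where 23.8% and 26.3% of all tested genes were lower. Of 10 p53 targets, 8 were higher and 1 (Zmat3) lower with chemotherapy, where 34.9% of all genes were higher and 24.3% lower. All 10 were lower with trametinib. With the combination 8 were higher and 2 lower, where 39.6% of all genes were higher. The keratins Krt8 and Krt18 had at least 69.9 TPM and 121 TPM in every library. The 5 general epithelial markers, mostly keratins, summed at 24 h to 374 to 395 TPM in combination cells, 220 to 257 TPM in trametinib cells, 451 to 489 TPM in chemotherapy cells and 323 to 337 TPM in untreated cells, so they moved with the treatments, and their part in the results below was not tested. The epithelial gene Epcam was listed at 0 in 23 of 24 libraries and the 5 lung epithelial markers summed to at most 0.369 TPM.

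Ptgs2 lay between 15.5 and 189.5 TPM and had the widest range of the members. At 24 h it fell 9.76-fold in mean TPM with trametinib alone and 1.85-fold with the combination, relative to untreated cells. Chemotherapy given without trametinib left it at 1.06 times the untreated mean, a difference within the spread between libraries. Combination cells held 5.28 times the mean Ptgs2 TPM of cells given trametinib alone.

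Ptgs2 had 85.2, 94.7 and 97.9 TPM in combination cells at 24 h, 19.0, 15.5 and 18.2 TPM in trametinib cells, 184, 189.5 and 169 TPM in chemotherapy cells, and 183, 147 and 183 TPM in untreated cells. The 3 trametinib libraries lay below all others and the 3 combination libraries below all untreated ones, while chemotherapy and untreated libraries overlapped. At 6 h Ptgs2 had 49.3, 45.8 and 52.3 TPM in combination cells, 27.5, 37.6 and 36.6 TPM in trametinib cells, 102, 85.6 and 92.8 TPM in chemotherapy cells, and 82.7, 93.2 and 95.3 TPM in untreated cells. At 6 h too the trametinib libraries were the lowest and the combination libraries came next, below overlapping chemotherapy and untreated libraries.

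At 24 h the log2 difference of Ptgs2 from untreated cells was -3.21 ± 0.11 with trametinib (adjusted p = 1.23e-14), which was the 8th lowest of the 12581 genes tested. It was -0.88 ± 0.11 with the combination (adjusted p = 1.15e-06) and 0.08 ± 0.11 with chemotherapy (adjusted p = 0.542). At 6 h it was -1.40 ± 0.11 with trametinib (adjusted p = 3.77e-09), -0.87 ± 0.11 with the combination (adjusted p = 1.56e-06) and 0.05 ± 0.11 with chemotherapy (adjusted p = 0.810). The fall with trametinib was deeper at 24 h than at 6 h by 1.81 ± 0.16 on the log2 scale (adjusted p = 6.12e-08). For the combination the same difference between the times was -0.01 ± 0.16 (adjusted p = 0.967).

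**Figure D1:**
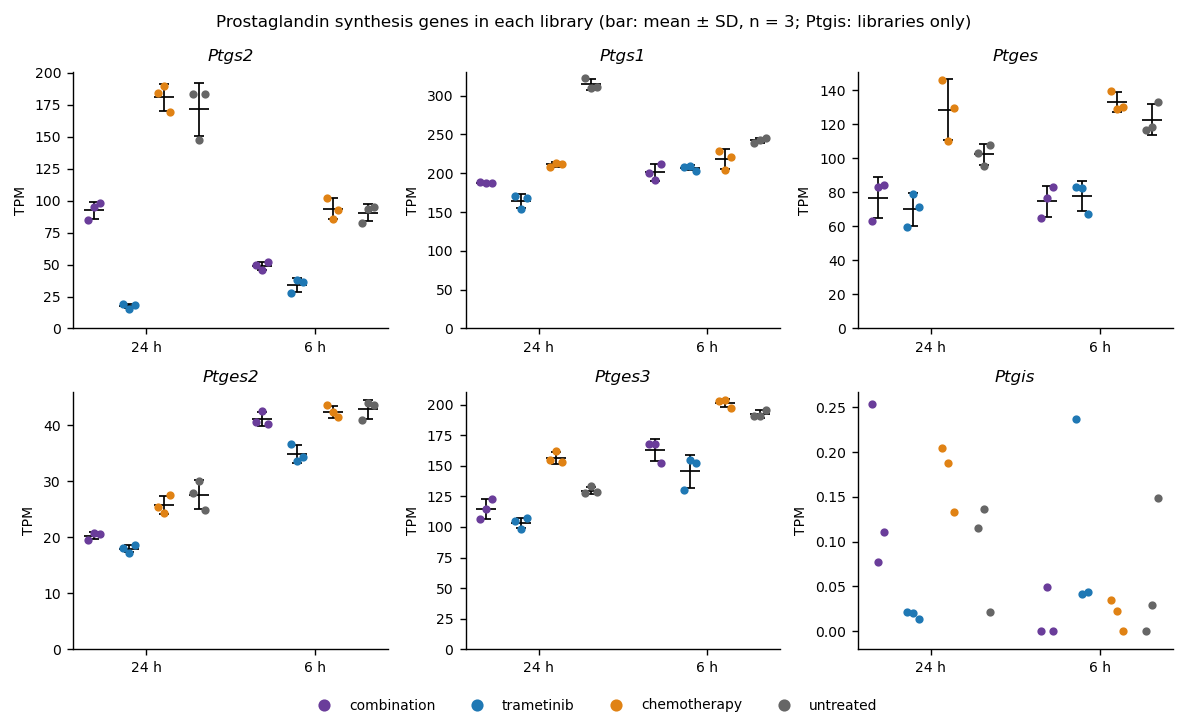
TPM of each gene (vertical axis, linear, a separate scale for each gene) in every library at 24 h and 6 h, with combination, trametinib, chemotherapy and untreated cells in turn from the left at each time. Points are libraries and black bars the mean ± SD of 3 libraries, left out for Ptgis, whose libraries lie between 0 and 0.254 TPM. The 3 trametinib libraries at 24 h, at 15.5 to 19.0 TPM, are the lowest for Ptgs2.

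Combination cells had more Ptgs2 than trametinib cells, by 2.34 ± 0.11 at 24 h (adjusted p = 5.22e-12), the 29th highest of the 12581 genes, and by 0.53 ± 0.11 at 6 h (adjusted p = 0.00209). With only the combination and trametinib libraries in the fit, the adjusted p at 6 h was 0.0523. Combination cells at 24 h held 92.6 ± 6.64 TPM (SD, n = 3), against the 18.6 TPM that the product of the ratios of mean TPM under chemotherapy and under trametinib would give. The combination exceeded the sum of the separate log2 effects by 2.25 ± 0.16 on the log2 scale at 24 h (adjusted p = 5.72e-09), the 24th highest of all genes tested. At 6 h the excess was 0.49 ± 0.16 (adjusted p = 0.260).

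In order of mean level, Ptgs2 stood at 181 TPM in chemotherapy cells and 171 TPM in untreated cells at 24 h, which did not differ beyond their spread. Next came chemotherapy cells at 6 h (93.5 TPM), combination cells at 24 h (92.6 TPM) and untreated cells at 6 h (90.4 TPM), again with no difference between neighbours. Combination cells at 6 h (49.1 TPM), trametinib cells at 6 h (33.9 TPM) and trametinib cells at 24 h (17.6 TPM) followed, each apart from the next. In untreated cells the gene was higher at 24 h than at 6 h by 0.91 ± 0.11 (adjusted p = 8.99e-07), so the comparisons at the later time set treated cells against a higher level.

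Ptgs2 (ENSMUSG00000032487.8, GRCm38 chr1:150100031-150108227, plus strand) has 1 annotated transcript with values, shares none of its 4549 words of 31 bases with another annotated gene, and overlaps no other gene. The 250 bases before its start, chr1:150099781-150100030 on the plus strand, are shown because this is the member whose level moved most. Sequences are from RefSeq (GRCm38.p6), and capitals mark a GC box, GGGCGG, and the C/EBP palindrome TTGCGCAA, a site type that the inflammatory C/EBP factors can bind.
Ptgs2 promoter: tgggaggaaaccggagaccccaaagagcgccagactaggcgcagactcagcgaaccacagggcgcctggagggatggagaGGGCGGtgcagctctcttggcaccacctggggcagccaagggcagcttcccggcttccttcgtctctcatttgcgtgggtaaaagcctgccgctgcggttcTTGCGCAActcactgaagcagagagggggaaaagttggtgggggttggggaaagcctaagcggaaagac
The palindrome ended 62 bases before the start and was found in 0.18% of 32851 promoter windows of 300 bases searched on both strands, which reach 50 bases past the start. The GC box was in 35.66% of them. Within the first bases after the start, not printed, lay the cAMP response element core ACGTCA (bases 13 to 18, 7.51% of windows) and an overlapping E-box, CACGTG (bases 17 to 22, 7.15% of windows). No match was found there for the AP-1 motif TGANTCA (7.81% of windows), the ETS motif CCGGAAG (8.86%) or the EGR core GTGGGCG (7.97%). Such matches describe the letters of the window and were not tied to any factor here.

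Ptgs1 was the more abundant cyclooxygenase mRNA in every group and fell with all 3 treatments at both times. At 24 h it had 189, 187 and 187 TPM in combination cells, 171, 154 and 168 TPM in trametinib cells, 208, 214 and 212 TPM in chemotherapy cells, and 322, 310.2 and 311 TPM in untreated cells. No treated library reached the lowest untreated one. The log2 difference from untreated cells was -0.74 ± 0.05 with the combination (adjusted p = 4.83e-11), -0.93 ± 0.05 with trametinib (adjusted p = 2.19e-12) and -0.57 ± 0.05 with chemotherapy (adjusted p = 3.15e-09). Each effect was larger at 24 h than at 6 h, where the differences were -0.27 ± 0.05 with the combination (adjusted p = 4.60e-05), -0.23 ± 0.05 with trametinib (adjusted p = 3.05e-04) and -0.16 ± 0.05 with chemotherapy (adjusted p = 0.0171).

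The chemotherapy fall at 6 h was the weakest of these: its adjusted p was 0.0896 with only the chemotherapy and untreated libraries in the fit, and 0.111 without chemotherapy replicate 2, 0.0520 without untreated replicate 2 and 0.0581 without untreated replicate 3. At 6 h Ptgs1 had 201, 191 and 212 TPM in combination cells, 208, 209 and 203 TPM in trametinib cells, 229, 204 and 221 TPM in chemotherapy cells, and 239, 243 and 246 TPM in untreated cells. The treated groups overlapped each other and lay below the untreated libraries.

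The Ptgs1 level in combination cells at 24 h was above that of trametinib cells, by 0.19 ± 0.05 (adjusted p = 0.00191). It also exceeded the sum of the separate effects, by 0.76 ± 0.07 (adjusted p = 6.60e-08). The combination held 188 ± 1.1 TPM (SD, n = 3), against 111 TPM by the product of ratios. That level was below the 314 ± 6.87 TPM of untreated cells at 24 h (SD, n = 3), and below chemotherapy alone (log2 difference -0.17 ± 0.05, adjusted p = 0.00428). Between neighbours in the order of levels, chemotherapy at 6 h, chemotherapy at 24 h, trametinib at 6 h and combination at 6 h (218, 211, 207 and 201 TPM) did not differ beyond their spread.

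Because the cyclooxygenases moved by unequal amounts, the share of their summed TPM that came from Ptgs2 changed. At 24 h the share was 33.0% ± 1.73 in combination cells, 9.62% ± 0.454 in trametinib cells, 46.1% ± 1.51 in chemotherapy cells and 35.2% ± 2.61 in untreated cells (SD, n = 3 each). At 6 h it was 19.6% ± 0.207 in combination cells, 14.1% ± 2.05 in trametinib cells, 30.0% ± 0.710 in chemotherapy cells and 27.1% ± 1.23 in untreated cells (SD, n = 3 each). The share was lowest with trametinib at both times and highest with chemotherapy. The sum of both mRNAs at 24 h was 280.4 TPM with the combination, 182 TPM with trametinib, 392 TPM with chemotherapy and 486 TPM in untreated cells, so the combination and untreated libraries overlapped in share but not in total.

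**Figure D2:**
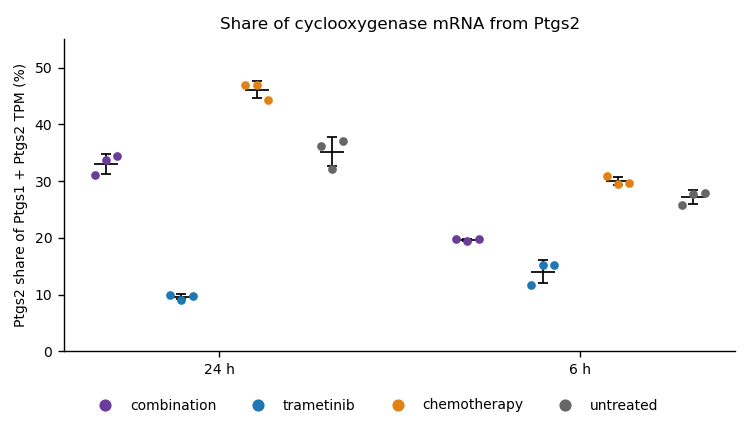
Ptgs2 as a percent of the summed TPM of Ptgs1 and Ptgs2 (vertical axis, linear from 0) in each library at 24 h and 6 h, with combination, trametinib, chemotherapy and untreated cells in turn from the left. Points are libraries and bars the mean ± SD of 3. Trametinib libraries at 24 h lie near 9.62%, and chemotherapy libraries near 46.1%.

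Ptgs1 (ENSMUSG00000047250.13, chr2:36230426-36252272, plus strand) overlaps Gm43621 on the opposite strand, which was at 0 TPM in these libraries, and shares 3.26% of its 31-base words with other genes. Its coding transcript held 77.6% to 89.6% of its TPM. Ptgs1-202 and Ptgs1-205, which each retain an intron, had means of 13.0 and 15.2 TPM in untreated cells at 6 h. At 24 h they had 29.15 and 36.6 TPM there. With coding transcripts only, the untreated difference between the times was 0.21 ± 0.04 (adjusted p = 3.05e-04). From untreated cells at 24 h, the combination then differed by -0.64, trametinib by -0.85 and chemotherapy by -0.45 (SE 0.04 each), all called.

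Ptges, the inducible microsomal synthase that works together with Ptgs2, was lower with the combination and with trametinib at both times. At 24 h it had 63.1, 82.9 and 84.6 TPM in combination cells, 59.8, 78.9 and 71.3 TPM in trametinib cells, 146, 110.3 and 130 TPM in chemotherapy cells, and 103, 95.7 and 108 TPM in untreated cells. The combination and trametinib libraries all lay under the untreated ones and overlapped each other, and the chemotherapy libraries all lay above the untreated ones. The log2 difference from untreated cells was -0.42 ± 0.13 with the combination (adjusted p = 0.00723), -0.55 ± 0.13 with trametinib (adjusted p = 0.00100) and 0.32 ± 0.13 with chemotherapy (adjusted p = 0.0364).

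At 6 h Ptges had 65.0, 76.5 and 83.1 TPM in combination cells, 83.4, 82.3 and 67.4 TPM in trametinib cells, 139.7, 129 and 130.0 TPM in chemotherapy cells, and 117, 118 and 133 TPM in untreated cells. Combination and trametinib libraries lay below all others, and chemotherapy and untreated libraries overlapped. The differences were -0.71 ± 0.13 with the combination (adjusted p = 7.41e-05), -0.66 ± 0.13 with trametinib (adjusted p = 2.06e-04) and 0.12 ± 0.13 with chemotherapy (adjusted p = 0.556). Unlike Ptgs2, Ptges was not shown to be higher in the combination than with trametinib alone: the difference was 0.13 ± 0.13 at 24 h (adjusted p = 0.427) and -0.05 ± 0.13 at 6 h (adjusted p = 0.813). Against chemotherapy alone the combination was lower, with a difference of -0.74 ± 0.13 at 24 h (adjusted p = 6.29e-05) and of -0.83 ± 0.13 at 6 h (adjusted p = 1.66e-05). The difference from the sum of effects at 24 h was -0.19 ± 0.18 (adjusted p = 0.463).

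The rise of Ptges with chemotherapy at 24 h depended on single libraries. Its adjusted p was 0.176 without chemotherapy replicate 1, 0.0801 without chemotherapy replicate 3, 0.0661 without untreated replicate 1 and 0.118 without untreated replicate 2, and it was 0.103 after rescaling of the libraries. The fall with the combination at 24 h had an adjusted p of 0.0618 without combination replicate 1.

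In combination and chemotherapy cells at 24 h the spread of Ptges lay mainly in 1 transcript. This transcript, Ptges-201, annotated as a processed transcript without a coding sequence, made up 10.8% to 43.4% of the gene's TPM, and the coding transcript Ptges-202 made up 55.9% to 87.1%. At 24 h Ptges-201 had 20.7 ± 12.2 TPM in combination cells, 15.5 ± 7.65 TPM in trametinib cells, 33.1 ± 19.3 TPM in chemotherapy cells and 31.4 ± 7.94 TPM in untreated cells (SD, n = 3 each). At that time the coding transcript had 55.4 ± 0.803 TPM in combination cells, 53.7 ± 6.31 TPM in trametinib cells, 94.9 ± 1.97 TPM in chemotherapy cells and 70.1 ± 2.32 TPM in untreated cells (SD, n = 3 each). With coding transcripts only, the chemotherapy difference was 0.43 ± 0.06 (adjusted p = 8.26e-06), the trametinib difference -0.38 ± 0.06 (adjusted p = 3.10e-05) and the combination difference -0.33 ± 0.06 (adjusted p = 1.23e-04). The combination then lay below the sum of effects (-0.38 ± 0.09, adjusted p = 0.00281), a call that the gene sum did not make. Between the times, the Ptges effects with coding transcripts only were less negative or more positive at 24 h than at 6 h, by 0.42 ± 0.09 for the combination (adjusted p = 6.52e-04), 0.38 ± 0.09 for trametinib (adjusted p = 0.00214) and 0.28 ± 0.09 for chemotherapy (adjusted p = 0.0147), none of which was called for the gene sum.

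In GRCm38 the gene Ptges (ENSMUSG00000050737.13) spans chr2:30889471-30929863 on the minus strand and holds the pseudogene Gm13400 on the same strand, at a mean of 0.276 TPM. The 250 bases before its RefSeq start, chr2:30903298-30903547 on the minus strand, are shown beside those of Ptgs2. They lie inside the annotated span above, so this start is not the outermost annotated one. All 5 tested members fell with trametinib, so that fall does not set Ptges and Ptgs2 apart. Capitals mark a repeated EGR core, GTGGGCG, the sequence bound by the growth factor induced protein Egr1, together with the GC boxes GGGCGG that overlap it.
Ptges promoter: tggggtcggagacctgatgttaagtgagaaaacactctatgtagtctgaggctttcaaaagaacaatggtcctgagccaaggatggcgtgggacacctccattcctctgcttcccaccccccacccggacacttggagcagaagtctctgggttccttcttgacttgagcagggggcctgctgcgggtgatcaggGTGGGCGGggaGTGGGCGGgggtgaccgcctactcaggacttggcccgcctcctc
The EGR cores began 55 and 44 bases before the start. The GC boxes began 53 and 42 bases before it, and none of the other motifs searched matched in the Ptges window. The Ptges2 window held 1 match, an E-box that began 77 bases before the start, a motif also found in the Ptgs2 window. The Ptges3 window held 4 matches, all GC boxes. The Ptgs1 window held no match to any of the 7 motifs, so no motif was shared by all the members' windows.

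Ptges2, a membrane-associated prostaglandin E synthase made at steady levels in many tissues, was the least abundant tested member in all groups but those given trametinib alone, where Ptgs2 was as low. At 24 h it had 19.6, 20.7 and 20.5 TPM in combination cells, 18.1, 17.3 and 18.6 TPM in trametinib cells, 25.4, 24.3 and 27.6 TPM in chemotherapy cells, and 28.0, 30.1 and 24.8 TPM in untreated cells. The combination and trametinib libraries lay under all others, and chemotherapy and untreated libraries overlapped. The log2 difference from untreated cells was -0.43 ± 0.06 with the combination (adjusted p = 4.21e-06), -0.59 ± 0.06 with trametinib (adjusted p = 7.52e-08) and -0.09 ± 0.06 with chemotherapy (adjusted p = 0.186).

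At 6 h Ptges2 had 40.6, 42.5 and 40.3 TPM in combination cells, 36.7, 33.6 and 34.4 TPM in trametinib cells, 43.6, 42.3 and 41.5 TPM in chemotherapy cells, and 41.0, 44.1 and 43.6 TPM in untreated cells. Only the trametinib libraries stood apart, with a difference of -0.29 ± 0.06 (adjusted p = 4.21e-04), while the combination was at -0.06 ± 0.06 (adjusted p = 0.425) and chemotherapy at -0.01 ± 0.06 (adjusted p = 0.905). The effects of the combination and of trametinib were deeper at 24 h than at 6 h, with differences of -0.37 ± 0.09 (adjusted p = 0.00141) and -0.30 ± 0.09 (adjusted p = 0.00881). Combination cells had more Ptges2 than trametinib cells at 6 h, by 0.23 ± 0.06 (adjusted p = 0.0103), and at 24 h, by 0.16 ± 0.06 (adjusted p = 0.0305).

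The smaller Ptges2 differences changed with the transcripts counted and with the scaling. Ptges2-203, which retains an intron, held 26.3% to 46.6% of the TPM of the gene, and the coding transcript Ptges2-201 held 46.5% to 63.1%. With coding transcripts only, the trametinib difference at 6 h had an adjusted p of 0.0716, and the excess of the combination over trametinib had one of 0.0516 at 6 h and 0.258 at 24 h. After rescaling of the libraries by median ratios, the differences with the combination at 6 h (-0.19, adjusted p = 0.0143) and with chemotherapy at 24 h (-0.17, adjusted p = 0.0246) passed the threshold. Ptges2 lies at chr2:32395896-32405772 on the plus strand (ENSMUSG00000026820.5) and overlaps no other gene.

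Ptges3 encodes the cytosolic prostaglandin E synthase, better known as p23, a co-chaperone of HSP90. At 24 h it had 106, 115 and 123 TPM in combination cells, 105, 98.4 and 107 TPM in trametinib cells, 155, 162 and 153 TPM in chemotherapy cells, and 128, 133 and 129 TPM in untreated cells. Combination and trametinib libraries lay below the untreated ones and chemotherapy libraries above them. The log2 difference from untreated cells was -0.18 ± 0.06 with the combination (adjusted p = 0.0148), -0.33 ± 0.06 with trametinib (adjusted p = 1.14e-04) and 0.27 ± 0.06 with chemotherapy (adjusted p = 7.57e-04). With chemotherapy its coding transcripts moved in opposite directions. Ptges3-202 had 119.9 ± 1.04 TPM, against 76.2 ± 2.93 TPM in untreated cells (SD, n = 3 each). Ptges3-201 had 36.3 ± 4.75 TPM, against 52.1 ± 4.36 TPM (SD, n = 3 each). Single transcripts were not tested.

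At 6 h Ptges3 had 168, 168 and 153 TPM in combination cells, 130.3, 155 and 152 TPM in trametinib cells, 203, 204 and 197 TPM in chemotherapy cells, and 191, 190.5 and 196 TPM in untreated cells. The chemotherapy libraries were the highest, and trametinib and combination libraries overlapped below the untreated ones. Ptges3 fell by 0.24 ± 0.06 with the combination (adjusted p = 0.00211) and by 0.40 ± 0.06 with trametinib (adjusted p = 1.28e-05), and the chemotherapy difference was 0.07 ± 0.06 (adjusted p = 0.474). In untreated cells both Ptges2 and Ptges3 were lower at 24 h than at 6 h (-0.62 ± 0.06, adjusted p = 4.22e-08, and -0.56 ± 0.06, adjusted p = 1.52e-07), the opposite direction to the cyclooxygenases. Ptgs1 was higher at 24 h, by 0.37 ± 0.05 (adjusted p = 9.86e-07), and Ptges was at -0.26 ± 0.13 (adjusted p = 0.0850). The Ptges libraries of the times did not overlap, and its difference was called with only the untreated libraries in the fit (adjusted p = 0.0146) and with coding transcripts only (-0.17, adjusted p = 0.0231).

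The Ptges3 level is uncertain, because the processed pseudogene Ptges3-ps on chromosome 6 is a copy of part of it. All 450 of the 31-base words of the pseudogene also occur in Ptges3, and the authors' values assign a mean of 98.8 TPM to the pseudogene. Summed with it, the combination difference at 24 h was -0.12 (adjusted p = 0.165), which ends that call. The call also ended without combination replicate 1 (adjusted p = 0.0983) and without untreated replicate 2 (adjusted p = 0.0538). Ptges3 lies at chr10:128058954-128077272 on the plus strand (ENSMUSG00000071072.12).

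**Figure D3:**
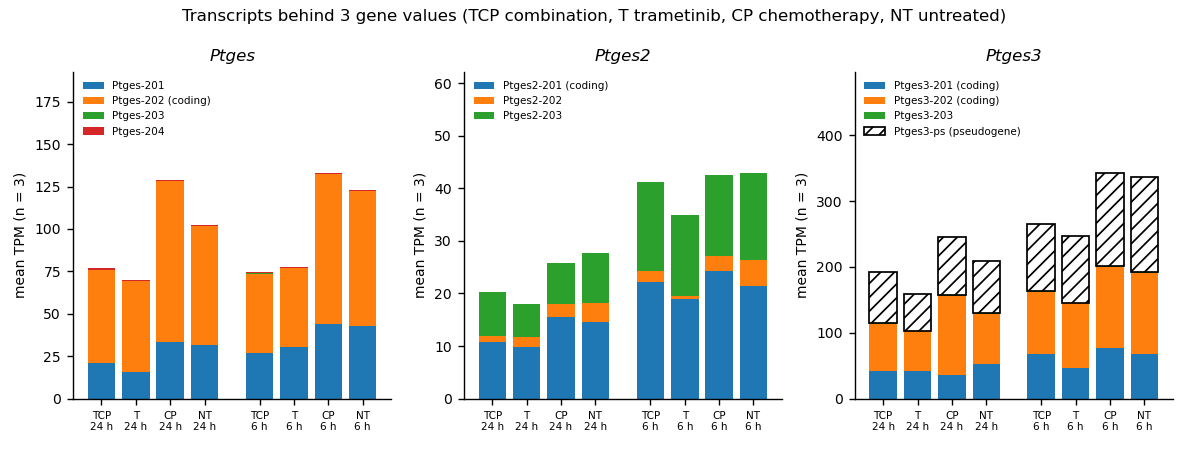
Mean TPM of each annotated transcript (stacked bars from 0, n = 3 libraries) for Ptges, Ptges2 and Ptges3 in the 8 groups, with the pseudogene Ptges3-ps stacked on Ptges3 as the hatched part. Ptges-202 and Ptges2-201 are the coding transcripts of their genes, and non-coding transcripts make up the rest. The pseudogene has a mean of 98.8 TPM over all libraries.

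Ptgis, the synthase of prostacyclin, was listed at 0 in 4 libraries and reached at most 0.254 TPM, so it did not pass the filter of at least 1 TPM in at least 3 libraries and was not tested in the main fit. At 24 h it had 0.254, 0.0767 and 0.111 TPM in combination cells, 0.0217, 0.0203 and 0.0134 TPM in trametinib cells, 0.204, 0.188 and 0.133 TPM in chemotherapy cells, and 0.115, 0.136 and 0.0209 TPM in untreated cells. At 6 h the libraries with a value lay between 0.0227 and 0.237 TPM. With no filter on low values Ptgis entered the limma fit, and only trametinib against chemotherapy at 24 h was called (-0.206 ± 0.066, adjusted p = 0.0158). These levels are too low to read that call or an order from. Ptgis (ENSMUSG00000017969.13, chr2:167191805-167240604, minus strand) overlaps a pair of genes on the opposite strand, both at 0 TPM.

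Counted over the 5 tested members, all 5 were lower with the combination at 24 h, where 23.8% of all tested genes were lower, and 4 were lower at 6 h, where 19.8% were. With trametinib all 5 were lower at 24 h (26.3% of all genes) and at 6 h (18.9%). Chemotherapy gave a mixed picture: at 24 h Ptges and Ptges3 were higher (34.9% of all genes) and Ptgs1 lower (24.3%), and at 6 h only Ptgs1 was lower (13.5%). After rescaling of the libraries, the share of all genes that were lower became 32% with the combination at 24 h and 29% at 6 h, and 26.2% with trametinib at 6 h. Ptges2 with the combination at 6 h was then called too, which made all 5 members lower there. The median log2 difference of the members was -0.43 at 24 h and -0.27 at 6 h with the combination, beside 0.10 at 24 h and 0.11 at 6 h over all genes tested. With trametinib it was -0.59 at 24 h and -0.40 at 6 h, beside 0.04 and 0.10 over all genes at these times. These comparisons share the untreated libraries of their time. The members were chosen with earlier results of these data known, so their counts are not an independent test of the set.

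Against trametinib at 24 h, Ptgs2, Ptgs1, Ptges2 and Ptges3 were higher in the combination, beside 31.4% of all genes (26.1% after rescaling), and at 6 h Ptgs2 and Ptges2 were, beside 12.3% (11.1% after rescaling). The Ptges2 and Ptges3 differences at 24 h were 0.16 ± 0.06 and 0.15 ± 0.06 (adjusted p = 0.0305 and 0.0477). After rescaling their adjusted p was 0.275 and 0.372, and neither call held without trametinib replicate 1 or 2 or combination replicate 2 or 3 (adjusted p up to 0.115 for Ptges2 and 0.230 for Ptges3).

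Against chemotherapy, all 5 members were lower in the combination at 24 h, beside 23.2% of all genes, and 4 at 6 h, beside 16.4% (5, beside 26.6%, after rescaling). Of these, Ptgs1 at 6 h differed by -0.11 ± 0.05 (adjusted p = 0.0438). That call was lost without chemotherapy replicate 1 or 3 or combination replicate 1 or 2 (adjusted p up to 0.211), and with only the compared groups in the fit (adjusted p = 0.202). Trametinib cells were also lower than chemotherapy cells in all 5 members at 24 h (35.5% of all genes) and in 4 at 6 h (19.7%). After rescaling all 5 were lower at 6 h in both comparisons, with Ptges2 at -0.19 in the combination (adjusted p = 0.0150) and Ptgs1 at -0.19 with trametinib (adjusted p = 8.47e-05), and the share of all genes was then 28% for trametinib.

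Beyond the sum of the separate effects, Ptgs2, Ptgs1 and Ptges2 were higher in the combination at 24 h, beside 16.2% of all genes. The Ptges2 excess of 0.26 ± 0.09 had an adjusted p of 0.0261, which became 0.861 with coding transcripts only. It was also lost without untreated replicate 1 or 2, chemotherapy replicate 1 or 2, trametinib replicate 2, or combination replicate 2 or 3 (adjusted p up to 0.0813). At 6 h limma's adjusted p was under 0.05 for 0 of the 5 members and for 12 genes, 0.0954% of all, and the unadjusted p was under 0.05 for 2 members, Ptgs2 and Ptges2. The 12 genes became 3 to 41 with 1 library left out (41 without trametinib replicate 2, 28 without chemotherapy replicate 1, and 3 without untreated replicate 1 or 2, chemotherapy replicate 2 or combination replicate 1) and 0 with only the compared groups in the fit, and the members called stayed at 0 in these.

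Between the times, the combination effect was lower at 24 h for Ptgs1 and Ptges2 (24.3% of all genes), the trametinib effect for Ptgs2, Ptgs1 and Ptges2 (22.3%) and the chemotherapy effect for Ptgs1 (16.7%, or 22.7% after rescaling). In untreated cells Ptgs1 and Ptgs2 were higher at 24 h than at 6 h (29.4% of all genes), and Ptges2 and Ptges3 lower (31.4%).

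**Figure D4:**
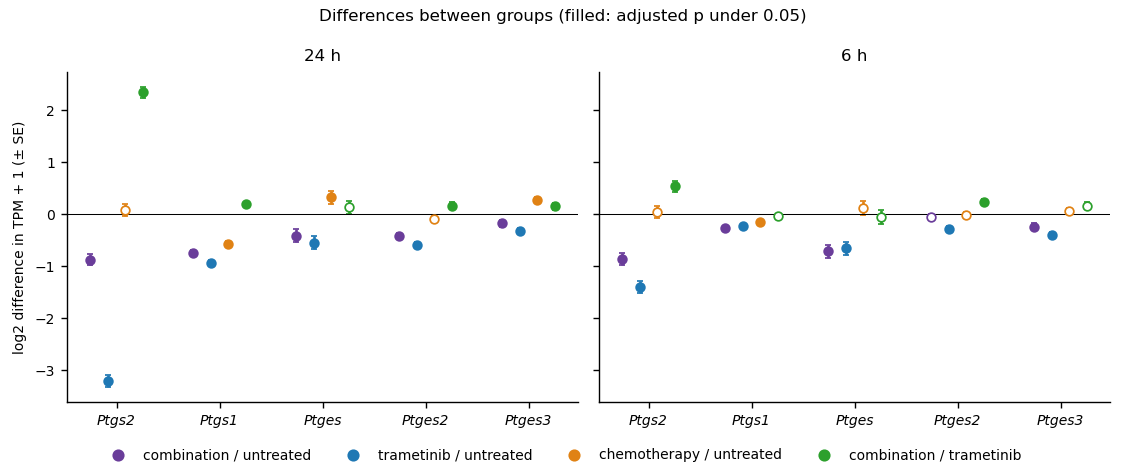
Log2 difference in TPM + 1 (vertical axis, ± SE) of the 5 tested genes at 24 h and 6 h, for the combination, trametinib and chemotherapy over untreated cells and for the combination over trametinib. Filled points had an adjusted p under 0.05. Ptgs2 with trametinib at 24 h (-3.21) and in the combination over trametinib (2.34) lie farthest from 0.

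Upstream of the cyclooxygenases, Pla2g4a, the cytosolic phospholipase A2 that releases arachidonic acid, fell with every treatment at 24 h. It had 80.3, 83.6 and 79.4 TPM in combination cells, 66.6, 53.4 and 58.6 TPM in trametinib cells, 78.1, 91.3 and 79.4 TPM in chemotherapy cells, and 169.7, 153 and 141 TPM in untreated cells. All treated libraries lay below the untreated ones. The log2 difference was -0.92 ± 0.11 with the combination (adjusted p = 3.7e-07), -1.36 ± 0.11 with trametinib (adjusted p = 1.95e-09) and -0.89 ± 0.11 with chemotherapy (adjusted p = 7.79e-07). Like both cyclooxygenases, Pla2g4a exceeded the sum of the separate effects in the combination, by 1.33 ± 0.15 (adjusted p = 2.29e-06). Of the 8 tested genes listed for arachidonate release, 2 lay above that sum at 24 h and 1 below it, beside 16.2% and 15.6% of all tested genes.

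The pathway lists are read against the share of all tested genes called at 24 h. With the combination 39.6% were higher and 23.8% lower (32.6% and 32% after rescaling), with trametinib 32.4% higher and 26.3% lower, and with chemotherapy 34.9% higher and 24.3% lower. Counts of the small lists below that lie near these shares say nothing particular of the list.

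Of the 14 genes listed for arachidonate release, 8 were tested. With the combination at 24 h 2 were higher and 3 lower, with trametinib 2 higher and 4 lower, and with chemotherapy 4 higher and 2 lower. Pla2g12a, a secreted phospholipase A2, was lower with the combination and with trametinib (-1.17 ± 0.05 and -1.14 ± 0.05). Pla2g4c, a cytosolic relative of Pla2g4a, was higher with the combination (0.96 ± 0.14), trametinib (0.54 ± 0.14) and chemotherapy (0.68 ± 0.14). It was low, at 0.274 to 4.95 TPM, and reached 1 TPM in 20 of the 24 libraries. Pla2g6, a calcium-independent phospholipase A2, was lower with trametinib at 24 h (-0.84 ± 0.11) and higher with chemotherapy (0.56 ± 0.11). Pla2g7, which breaks down platelet-activating factor, was higher with the combination (0.51 ± 0.06). The phospholipase gene Pla2g16 was called higher with chemotherapy (0.61 ± 0.12). It reached 1 TPM in only 4 of the 24 libraries and at most 1.75 TPM, so it barely passed the filter and that call lies near the floor. The secreted Pla2g2a was listed at 0 in all 24 libraries.

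Among other terminal enzymes, 4 of 8 were tested, and with trametinib at 24 h 3 were lower and none higher. Akr1b3, aldose reductase, which can also make prostaglandin F2 alpha, fell by 1.01 ± 0.04, and its relative Akr1b8 by 0.69 ± 0.07. With the combination 3 were lower and 1 higher, and with chemotherapy the 4 differences lay between -0.11 and 0.12. The prostaglandin D synthases Ptgds and Hpgds and the thromboxane synthase Tbxas1 were below the filter, at most 0.832, 0.157 and 0.959 TPM.

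Of 6 genes for transport and breakdown, 4 were tested. The exporter Abcc4, which carries prostaglandin E2 out of cells, fell by 0.84 ± 0.07 with trametinib at 24 h, and exceeded the sum of effects in the combination by 0.72 ± 0.10 (adjusted p = 2.6e-05). Of the 4 tested genes, 2 lay above that sum at 24 h and 0 below it, beside 16.2% and 15.6% of all tested genes. Ptgr1, a reductase that inactivates prostaglandin metabolites, was higher with the combination (0.58 ± 0.05) and chemotherapy (0.64 ± 0.05) at 24 h, and with the combination (0.98 ± 0.05) and trametinib (0.76 ± 0.05) at 6 h. The related reductase gene Ptgr2 was higher with the combination at 24 h (0.56 ± 0.08), and Zadh2, also called Ptgr3, lower with chemotherapy (-0.55 ± 0.05). In all, 2 were higher and 1 lower with the combination at 24 h, none higher and 1 lower with trametinib, and 2 higher and 2 lower with chemotherapy. Hpgd, the dehydrogenase that starts prostaglandin E2 breakdown, was listed at 0 in all 24 libraries, and the uptake carrier Slco2a1 reached at most 0.123 TPM.

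Receptors were scarce: of 10 prostanoid receptor genes 2 were tested. Ptger1, a receptor for prostaglandin E2, had 5.77, 6.00 and 6.01 TPM in combination cells, 6.21, 6.28 and 6.35 TPM in trametinib cells, 4.96, 3.94 and 4.86 TPM in chemotherapy cells, and 2.97, 3.06 and 2.75 TPM in untreated cells at 24 h. It rose with all 3 treatments there, by 0.82 ± 0.10 with the combination, 0.89 ± 0.10 with trametinib and 0.51 ± 0.10 with chemotherapy. Ptgfr, the prostaglandin F receptor, was higher with the combination (1.26 ± 0.19) and with trametinib (0.79 ± 0.19) and reached at most 3.62 TPM in any library. Of the other receptors for prostaglandin E2, Ptger2 was listed at 0 in all 24 libraries, and Ptger3 and Ptger4 reached at most 0.0185 and 0.0990 TPM.

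In the lipoxygenase branch, which turns the same arachidonic acid into leukotrienes, 3 of 9 genes were tested. Alox5ap, the protein that presents arachidonic acid to 5-lipoxygenase, had 18.0, 18.7 and 17.4 TPM in combination cells, 8.29, 10.6 and 9.92 TPM in trametinib cells, 5.19, 7.89 and 5.10 TPM in chemotherapy cells, and 1.11, 1.13 and 1.26 TPM in untreated cells at 24 h. It rose with all 3, by 3.14 ± 0.15 with the combination (adjusted p = 1.16e-12), 2.29 ± 0.15 with trametinib (adjusted p = 1.59e-10) and 1.68 ± 0.15 with chemotherapy (adjusted p = 1.47e-08). Ltc4s, leukotriene C4 synthase, was higher with the combination (1.58 ± 0.24) and with chemotherapy (1.02 ± 0.24). The 5-lipoxygenase gene Alox5 itself reached at most 0.226 TPM. In all, 2 of the 3 were higher with the combination and with chemotherapy, and with trametinib 1 was higher and 1 lower.

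**Figure D5:**
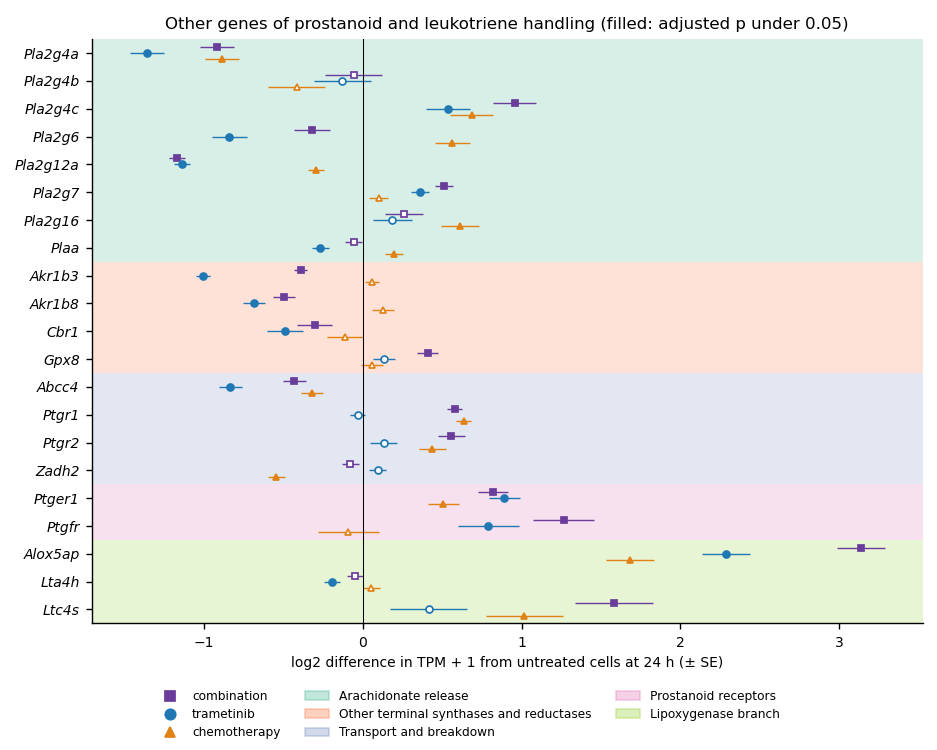
Log2 difference in TPM + 1 from untreated cells at 24 h (horizontal axis, ± SE) for the 21 tested genes around the synthesis step, with the combination (squares), trametinib (circles) and chemotherapy (triangles). Colour bands mark the gene lists and filled symbols an adjusted p under 0.05. Alox5ap lies farthest to the right (3.14 with the combination) and Pla2g4a farthest to the left (-1.36 with trametinib).

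Proteins that bind Ptgs2 mRNA and set its stability or translation were read from a list of 10 genes, all tested. At 24 h 5 were higher and 3 lower with the combination, 3 higher and 2 lower with trametinib, and 6 higher and 4 lower with chemotherapy. Zfp36, tristetraprolin, which speeds the decay of AU-rich mRNAs, had 6.95, 9.49 and 9.35 TPM in combination cells, 4.12, 4.22 and 4.10 TPM in trametinib cells, 18.1, 14.2 and 14.9 TPM in chemotherapy cells, and 3.78, 3.46 and 5.05 TPM in untreated cells. It was highest in chemotherapy cells, whose Ptgs2 did not differ from that of untreated cells beyond the spread. The part of Zfp36 in the Ptgs2 levels was not tested. The related Zfp36l1 rose by 0.97 ± 0.07 with the combination, 0.56 ± 0.07 with trametinib and 1.08 ± 0.07 with chemotherapy. The RNase gene Zc3h12a was higher with the combination (1.15 ± 0.14) and chemotherapy (0.77 ± 0.14), and Celf2, which binds Ptgs2 mRNA, with the combination (0.84 ± 0.12) and trametinib (0.85 ± 0.12). Celf2 was low, at 0.599 to 4.13 TPM, and reached 1 TPM in 17 of the 24 libraries. Tia1, a translational silencer that binds AU-rich mRNAs, was lower with chemotherapy (-0.94 ± 0.08).

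The HSP90 machinery, in which the Ptges3 protein works, was read from 10 genes, all tested. At 24 h 1 was higher and 5 lower with the combination, none higher and 8 lower with trametinib, and 3 higher and 5 lower with chemotherapy. The co-chaperones Ppid and Fkbp4 fell by 0.95 ± 0.09 and 0.59 ± 0.05 with trametinib and by 0.53 ± 0.09 and 0.81 ± 0.05 with the combination. The chaperone Hsp90aa1 rose by 0.66 ± 0.07 and the co-chaperone Ahsa1 by 0.51 ± 0.04 with chemotherapy.

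The genes whose log2 levels ran closest to Ptgs2 over the 24 libraries, of 9618 compared, were Tcam1, Ereg, Sesn2, Snrnp48 and Lgi2, at Pearson's r of 0.979, 0.977, 0.974, 0.963 and 0.954. Ereg, a growth factor of the EGF family, had a difference of -2.27 with trametinib at 24 h and of 1.56 in the combination over trametinib. For Sesn2, a stress response gene on the list of p53 targets, these differences were -1.80 and 1.33. Both genes were picked for their likeness to Ptgs2 over the same libraries, so the shared directions follow from that choice. For Ptges the first were Ppard (0.945), a fatty acid sensing nuclear receptor, Sema4b (0.937), Arid5a (0.935), Pla2g6 (0.935) and Dusp5 (0.927), an ERK phosphatase. For Ptgs1 they were Txnrd1 (0.937), a thioredoxin reductase, Hspa9 (0.937), Cyb5r1 (0.928) and the tRNA synthetase genes Eprs (0.924) and Wars (0.922). Ptges2 ran closest to Prl2c2 (0.980), Hsph1 (0.965), Slc25a5 (0.963), Ncs1 (0.963) and Ttll12 (0.963), and Ptges3 to Gcsh (0.974), Idh3a (0.970), Abcf2 (0.968), Pa2g4 (0.967) and Ppa1 (0.965). No gene appears in more than 1 of these lists. The libraries of a group share their treatment, so these values describe the pattern over 8 groups.

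Markers of other cell types moved with some groups. The 7 fibroblast and smooth muscle markers summed at 24 h to 63.4 to 75.6 TPM in combination cells, 148 to 187 TPM in trametinib cells, 23.5 to 25.5 TPM in chemotherapy cells and 12.5 to 12.8 TPM in untreated cells. At 6 h they summed to 72.5 to 83.0 TPM in combination cells, 64.0 to 72.6 TPM in trametinib cells, 19.6 to 20.5 TPM in chemotherapy cells and 18.7 to 18.9 TPM in untreated cells. At 24 h this list was highest in trametinib cells, where Ptgs2 was lowest, and at 6 h combination and trametinib libraries overlapped. Of the list, 4 of 7 genes (Acta2, Dcn, Des and Pdgfra) had means of at least 1 TPM, and Myh11 reached at most 0.0496 TPM. The 6 macrophage markers summed to 34.8 to 41.2 TPM with chemotherapy at 24 h, and between 5.05 and 18.0 TPM in the other groups at that time, with Cd68 as the most abundant. Adgre1 was listed at 0 in all 24 libraries, Ptprc at 0 in 23, and Cd3e, Kit and Cpa3 at 0 in all. The 5 endothelial markers summed at 24 h to 7.503 to 9.33 TPM in combination cells, 6.19 to 7.47 TPM in trametinib cells, 8.98 to 15 TPM in chemotherapy cells and 5.83 to 6.19 TPM in untreated cells. The 4 platelet and mast cell markers, of which Itga2b alone reached a mean of 1 TPM, summed at 24 h to 6.25 to 8.66 TPM in combination cells, 7.65 to 9.95 TPM in trametinib cells, 4.68 to 5.51 TPM in chemotherapy cells and 5.99 to 7.25 TPM in untreated cells. At 6 h they were higher in both groups given trametinib, at 9.20 to 12.8 TPM in combination cells, 7.69 to 11.4 TPM in trametinib cells, 2.29 to 4.31 TPM in chemotherapy cells and 1.29 to 2.98 TPM in untreated cells. The 4 T and NK cell markers summed to at most 0.444 TPM. The part of other cells in the members' differences was not tested, and in bulk RNA fewer cells of a type and less RNA per cell cannot be told apart.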

How the data were processed

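The authors' deposited table holds TPM for 82934 transcripts in 24 libraries. The tools were bcl2fastq 2.17.1.14 and kallisto 0.45 with the build GRCm38, per the submitters' processing notes. The transcript set and strand setting are not given in the sources used here. TPM keeps no depth, so no read count stands behind a value. Here, 79662 transcripts were matched to 28328 genes of GENCODE M21 (GRCm38) and summed, which left out 3272 (4.45% to 5.98% of a library's TPM). The 12581 genes that reached 1 TPM in 3 or more libraries were tested on log2(TPM + 1), a scale that understates changes of low genes, with limma 3.58.1 in R 4.3.3. All 8 groups entered 1 fit (16 residual degrees of freedom, variance trend), with Benjamini-Hochberg adjusted two-sided p-values over all genes and calls under 0.05. The steps were tested on simulated data. The members and lists were chosen with earlier results of these data known. Pathway genes are named where called with a log2 difference of at least 0.5 from untreated cells at 24 h, at most 6 a list and comparison, and other comparisons and genes below the filter as examples. The 5 genes most like each member were taken by Pearson's r over the 24 libraries, among genes with a group mean of at least 5 TPM. Promoter windows are RefSeq's (GRCm38.p6) and were found for 5 of the 6 members. Alternatives changed the pseudocount, filter, scaling, libraries, fit and transcripts. The sum of Ptges3 with Ptges3-ps was chosen after seeing the data.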

Additional observations from a re-analysis of the deposited data

Results flagged for a closer look

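In 6 of the 15 tests of an effect at 24 h minus the same effect at 6 h, the difference itself passed the adjusted p of 0.05. For Ptgs2 it was -1.81 for trametinib (adjusted p = 6.12e-08). For Ptgs1 the combination gave -0.471 (adjusted p = 8.22e-06), trametinib gave -0.702 (adjusted p = 1.35e-07), and chemotherapy gave -0.414 (adjusted p = 4.36e-05). With coding transcripts only, these Ptgs1 values were smaller in size, at -0.34, -0.55 and -0.25, and still called. For Ptges2 the combination gave -0.367 (adjusted p = 0.00141) and trametinib -0.299 (adjusted p = 0.00881). In each of these 6 cases the gene lay further below untreated cells at 24 h than at 6 h, while the untreated level itself was higher at 24 h for Ptgs1 and Ptgs2 and lower for Ptges2. With coding transcripts only, Ptges passed the threshold in the other direction for the combination (0.42), trametinib (0.38) and chemotherapy (0.28).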

How the results depend on the processing

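Of the 60 member differences called over 18 comparisons, none changed sign under any alternative, and the calls of Ptgs2 against untreated cells were kept with every library left out in turn (trametinib at 24 h -3.32 to -3.13). All 60 calls held with a pseudocount of 0.1 or 0.5 or a mean of at least 5 TPM, 57 without a filter, 57 after median ratio rescaling, 54 with only the compared groups, 55 with coding transcripts only, 58 without a variance trend and 52 held whichever single library was left out. Fewest calls held under the stricter Bonferroni rule described below, which kept 33 and lost 27. Rescaling moved the median of all genes by 0.13 for the combination against chemotherapy at 6 h, 0.11 for the combination against untreated cells at both times and 0.10 for trametinib against chemotherapy at 6 h. The number of members called for the combination against trametinib at 24 h was 4, and 2 after rescaling. With only the compared groups it was 0 for chemotherapy against untreated cells at 6 h (1 as reported), 0 for the combination against trametinib at 6 h (2 as reported) and 2 for the chemotherapy effect between times (1 as reported). With coding transcripts only it was 1 for the combination against trametinib at 6 h and 3 for the chemotherapy effect between times. Under a Bonferroni adjusted p of 0.10, the rule of the series' design text, which is stricter by construction, the members called at 24 h numbered 3 for the combination, 3 for trametinib and 1 for chemotherapy against untreated cells, 2 for the combination against chemotherapy and 1 against trametinib. At 6 h they numbered 1, 2 and 0 against untreated cells, 2 for the combination against chemotherapy and 0 against trametinib, and 1 for the combination effect between times. Without single libraries the counts ranged from 0 to 1 for chemotherapy against untreated cells at 6 h, 3 to 5 for the combination against untreated cells at 24 h and 2 to 4 for the combination against trametinib at 24 h. The cause of these changes was not tested.

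Differences that were not called changed sign near 0. Ptges2 with chemotherapy at 6 h was 0.0018 after rescaling and 0.18 with coding transcripts only. With coding transcripts only Ptges2 was also 0.051 with the combination at 6 h and 0.077 with chemotherapy at 24 h, and in the combination over trametinib at 6 h Ptgs1 was 0.00019 and Ptges 0.011. The Ptgs2 chemotherapy effect between times was -0.056 after rescaling, and Ptges3 beyond the sum at 24 h was 0.045 when summed with Ptges3-ps. Without single libraries the range crossed 0 for Ptgs2 with chemotherapy at 24 h (-0.020 to 0.137) and at 6 h (-0.018 to 0.107), its chemotherapy and combination effects between times (-0.066 to 0.102 and -0.114 to 0.052), Ptges2 with chemotherapy at 6 h (-0.045 to 0.0067), Ptges in the combination over trametinib at 6 h (-0.152 to 0.042) and the Ptges3 trametinib effect between times (-0.0018 to 0.121).

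The same replicate number did not pair libraries: of 36 pairs of same-numbered libraries 10 deviated together with r over 0.1 (-0.358 to 0.335), and in 24 of 72 checks of a library against another group it correlated best with its own number. With the replicate block 55 of 60 calls held, and the members called for the combination against trametinib at 24 h numbered 2. Over all genes, the calls beyond the sum at 6 h, 12 as reported, numbered 7 with a pseudocount of 0.1, 20 with coding transcripts only, 4 with the replicate block and 0 with only the compared groups. With only the compared groups they were 828 for the combination against trametinib at 6 h (2373 as reported) and 2002 for chemotherapy against untreated cells at 6 h (3116 as reported), and the Bonferroni rule left 0.182 to 0.507 of the calls in each comparison. The unknown depth limits what can be said of Ptgis and the receptors below the filter.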
